A study of Mus musculus with 8 samples.

Results

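The aminoacyl-tRNA synthetases were compared between LPS-treated macrophages with and without ursodeoxycholic acid (UDCA). Members were chosen by gene symbol: a letter or letters for the amino acid followed by ars, with or without a final 1 or 2, and the phenylalanine subunits Farsa and Farsb. This gave 36 of the 55487 genes listed, and all 36 had a mean of at least 1 TPM and were tested. Of them, 17 have names ending in 2 and are treated here as mitochondrial, and the other 19 as cytosolic. J774A.1 is a mouse macrophage cell line, so every library comes from the same line, and cells of all libraries received LPS, the bacterial lipopolysaccharide sensed through Toll-like receptor signalling, for 24 h. The methods of the study give 1 μg/mL for LPS and 1 mM for UDCA, a secondary bile acid. There were 4 libraries of LPS alone (LPS) and 4 of LPS with UDCA (LPS + UDCA), and no untreated library was analysed here. The labels number the replicates without saying whether they were separate cultures, so a p-value measures the spread between these libraries, which may be technical.

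Each synthetase attaches one amino acid to its matching tRNA, the step at which the genetic code is read. The enzymes fall into class I and class II, which differ in the fold of the catalytic domain. Separate nuclear genes serve cytosolic and mitochondrial translation for most amino acids, while Gars and Kars each encode both forms. Several cytosolic synthetases are held with the scaffold proteins Aimp1, Aimp2 and Eef1e1 in the multisynthetase complex. In cells short of an amino acid, uncharged tRNA activates the kinase Gcn2, translation slows and the transcription factor Atf4 is made, and many synthetase genes are known Atf4 targets.

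The files hold TPM, in which the reads of a gene are divided by its length and scaled to the library, so levels can be compared between genes but the number of reads behind a value is unknown. The TPM values listed summed to between 973190 and 977485 in LPS libraries and between 958918 and 962737 in LPS + UDCA libraries. Of 10 macrophage markers, 9 were tested and Mertk was listed at 0. Adgre1, Fcgr1, Ptprc and Spi1 were higher with UDCA, and Itgam, Lyz2, Cd68, Csf1r and Cd14 were lower, with the call of Ptprc lost after centring within bins of GC content (0.10, FDR = 0.25). The summed level of the markers was 4240 to 4472 TPM in LPS libraries and 2081 to 2338 TPM in LPS + UDCA libraries. None of the 10 markers of epithelial, fibroblast, endothelial, T, B and NK cells reached the filter, and their sum was at most 1.06 TPM in any library. In bulk RNA, fewer cells of one state and less RNA per cell cannot be told apart.

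UDCA shifted most synthetase mRNAs, in both directions and, Qars apart, by less than 2-fold. On the log2(TPM + 1) scale, 18 of the 36 members rose and 11 fell at an FDR under 0.05 (limma, Benjamini-Hochberg over 11796 genes), and 7 were not called. Among all genes tested, 40.2% were called higher and 32.3% lower, shares close to those of the members. With a fold change of at least 2 as a further threshold, 0 members were higher, against 8.71% of all genes, and 1 was lower, against 8.44% of all genes. That member was Qars, the glutaminyl-tRNA synthetase. For 30 of the 36 members, and for 66.8% of all genes, every library of one group lay above every library of the other. The median log2 fold change was 0.19 over the members and 0.08 over all genes.

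**Figure D1:**
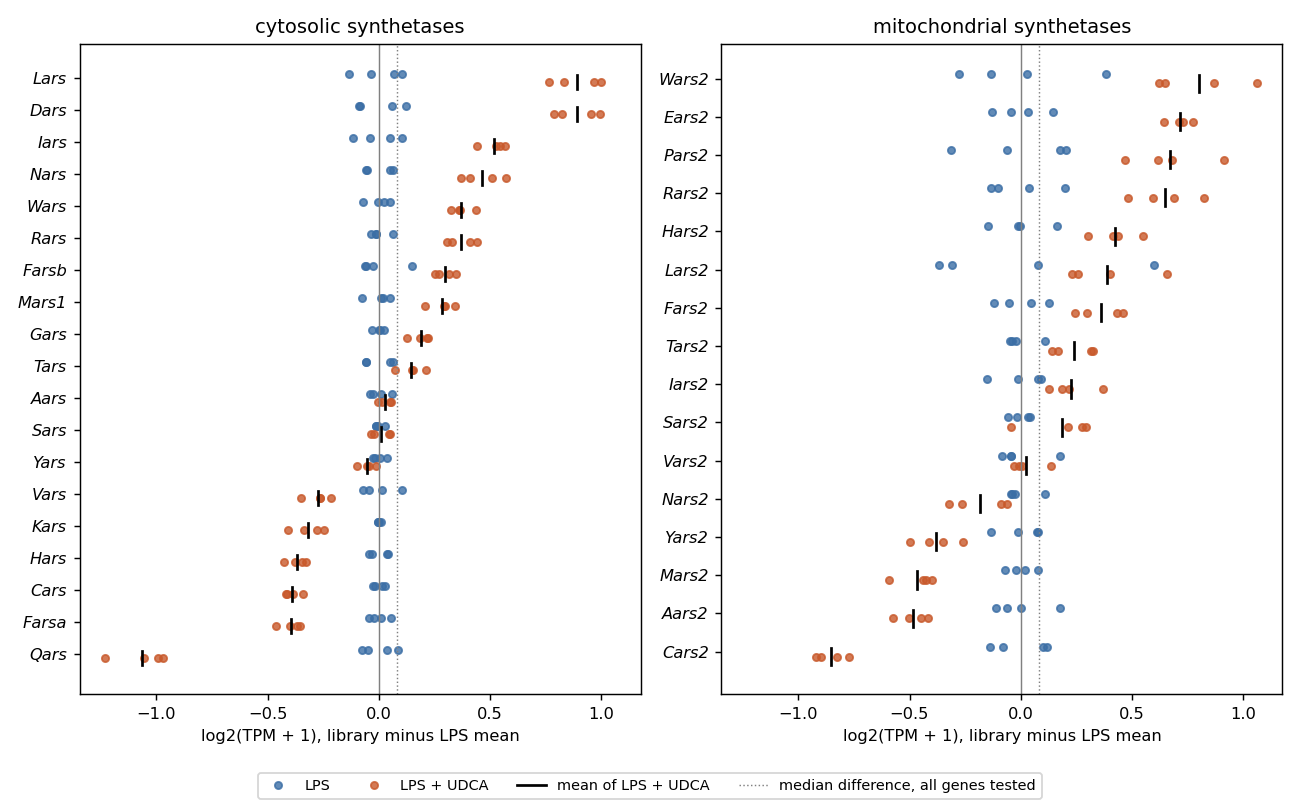
Each point is 1 library, placed by its log2(TPM + 1) minus the mean of the 4 LPS libraries, for the 19 cytosolic (left) and 16 of the 17 mitochondrial (right) members. The black bar is the mean of the 4 LPS + UDCA libraries and the dotted line the median difference over all genes tested (0.08). Means run from -1.06 for Qars to 0.89 for Lars and Dars.

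Qars, which charges tRNA with glutamine, changed most among the members. It lies on chromosome 9 (chr9:108507706-108515941, plus strand, GRCm38) and overlaps no other gene in GENCODE M21. Its TPM was 291.74, 265.06, 260.82 and 282.00 in the LPS libraries and 139.63, 137.58, 116.47 and 131.44 in the LPS + UDCA libraries. The lowest LPS library was well above the highest LPS + UDCA library. The mean fell from 274.9 ± 14.5 to 131.3 ± 10.5 TPM (SD, n = 4), a log2 fold change of -1.06 ± 0.06 (SE, limma, FDR = 5.58e-07). Its fold change was -0.96 after quantile normalization and -0.99 after centring within bins of GC content, both just short of 2-fold, and its FDR stayed under 0.05 in every alternative tried.

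Lars and Dars, the leucyl- and aspartyl-tRNA synthetases, stood at the other end. Dars (chr1:128363707-128417368, minus strand) had 47.70, 42.94, 43.07 and 49.90 TPM in the LPS libraries and 79.78, 81.77, 89.55 and 92.21 TPM in the LPS + UDCA libraries. Lars had 100.93, 85.23, 91.37 and 98.12 TPM in the LPS libraries and 160.06, 167.46, 188.17 and 184.08 TPM in the LPS + UDCA libraries. In neither gene did the groups overlap. Both rose by 0.89 on the log2 scale, Dars with an SE of 0.07 (FDR = 2.61e-06) and Lars with an SE of 0.07 (FDR = 3.02e-06, limma). After centring within bins of GC content, Lars stood at 0.77 and Dars at 0.41, both still called. The longest protein-coding transcript of Dars has a GC content of 41.2%, and only 8.20% of protein-coding genes tested have a lower one.

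The multisynthetase complex holds the 7 cytosolic members Dars, Iars, Kars, Lars, Mars1, Qars and Rars, and all 7 were called. Of these, 5 rose and 2, Qars and Kars, fell, with a median log2 fold change of 0.37. Among the 12 cytosolic members outside the complex, 5 rose, 4 fell and 3 were not called, with a median of 0.02. Of all genes tested, 40.2% were called higher and 32.3% lower, with a median of 0.08. The isoleucine enzyme Iars rose by 0.52 and the arginine enzyme Rars, at 235.7 ± 7.3 TPM in LPS one of the most abundant, rose by 0.37. The methionine enzyme Mars1 rose by 0.28, from 134.28, 146.29, 143.02 and 142.35 TPM to 179.64, 173.89, 163.18 and 173.64 TPM. Mars1 overlaps Ddit3 on the opposite strand, and 1.10% of its 31-base words occur in Ddit3 transcripts. Ddit3 itself rose by 0.54 (limma, FDR = 8.43e-07). Whether the counting used strand is not given in the sources used here.

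The genes of the complex that the symbol rule does not take were read beside these. Eprs, a single chain that charges both glutamate and proline (chr1:185363044-185428360, plus strand), had 81.02, 67.95, 62.87 and 75.19 TPM in the LPS libraries and 137.70, 150.67, 157.46 and 171.33 TPM in the LPS + UDCA libraries. It rose by 1.10 with no overlap (limma, FDR = 4.08e-06), past both thresholds and further than any member. Across the alternatives its log2 fold change ran from 0.97, just short of 2-fold, to 1.16, and it was called higher in all 17. Of the scaffolds, Eef1e1 had 42.91, 43.00, 44.39 and 45.13 TPM in the LPS libraries and 50.78, 46.38, 57.57 and 60.20 TPM in the LPS + UDCA libraries. Its log2 fold change of 0.28 was called (limma, FDR = 0.0092), but not after centring on the median of all genes (0.20, FDR = 0.052) or within bins of GC content, where the sign turned (-0.05, FDR = 0.55). Aimp1 had 130.74, 142.87, 140.81 and 139.92 TPM against 148.08, 142.70, 153.86 and 158.82 TPM, called higher by 0.12 (FDR = 0.033) although the groups overlapped. The Aimp1 call was lost in 9 of 17 alternatives, among them centring on the median of all genes (0.04, FDR = 0.49) and leaving out LPS replicate 1 (0.09, FDR = 0.080), LPS replicate 4 (0.13, FDR = 0.055), LPS + UDCA replicate 3 (0.11, FDR = 0.077) or LPS + UDCA replicate 4 (0.10, FDR = 0.082). Aimp2 had 68.82, 67.50, 69.89 and 64.40 TPM against 63.45, 64.31, 64.00 and 56.20 TPM, a difference of -0.13 that was not called (FDR = 0.056). It was called lower after centring on the median of all genes (-0.20, FDR = 0.0092), with the replicate block (FDR = 0.034), and without LPS replicate 4 (-0.15, FDR = 0.044) or LPS + UDCA replicate 2 (-0.14, FDR = 0.0498). The products of these genes sit in 1 particle, and their mRNAs differed by -1.06 for Qars and 1.10 for Eprs at the extremes.

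**Figure D2:**
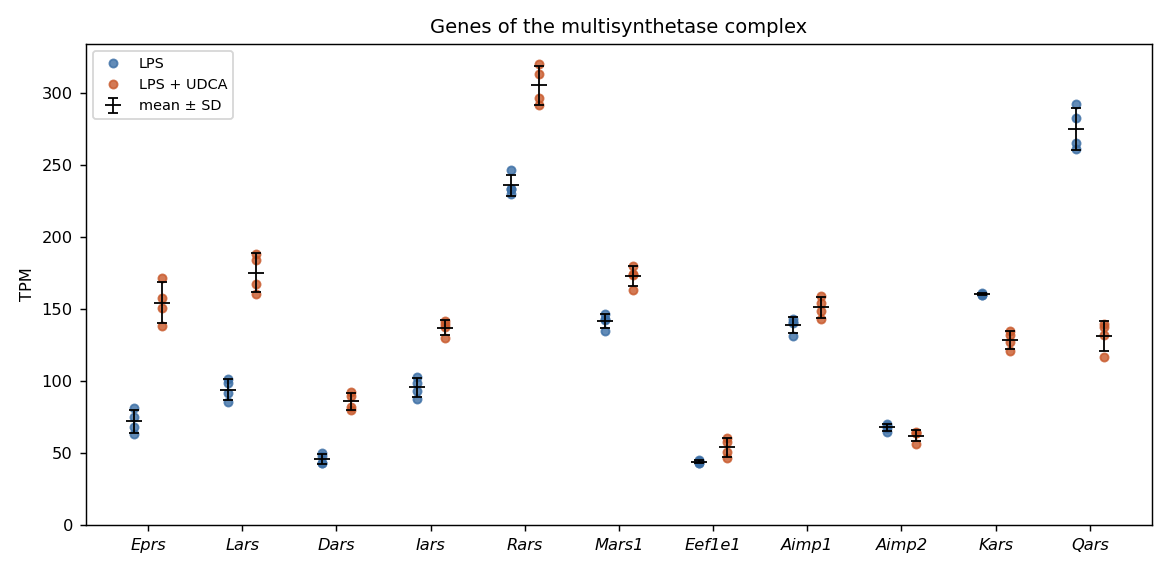
TPM of the 11 genes of the multisynthetase complex, ordered by log2 fold change, with each point 1 library and the bars the mean ± SD of 4 libraries. Eprs, Lars and Dars lie clearly higher with UDCA, Qars drops from a mean of 274.9 to 131.3 TPM, and the groups lie close together for Aimp1 and Aimp2.

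Kars and Gars serve both compartments from 1 gene each, and they went opposite ways. Kars, which also makes the signalling dinucleotide Ap4A in immune cells, had 159.70, 160.45, 159.80 and 161.06 TPM in the LPS libraries and 126.79, 131.77, 134.86 and 120.35 TPM in the LPS + UDCA libraries. The LPS libraries were nearly the same and the LPS + UDCA libraries all lay below them. Kars fell by 0.32 on the log2 scale (limma, FDR = 6.89e-05). Gars, the glycine enzyme, had 275.30, 268.90, 276.18 and 279.75 TPM in the LPS libraries and 312.84, 320.75, 300.67 and 319.42 TPM in the LPS + UDCA libraries. It rose by 0.19 with no overlap (FDR = 0.00046), and by 0.11 after centring on the median of all genes (FDR = 0.015).

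Wars and Yars encode enzymes with known roles outside translation, Wars as an interferon-inducible gene and Yars as the source of cytokine-like fragments. Wars had 131.20, 128.79, 120.74 and 126.47 TPM in the LPS libraries and 163.38, 171.74, 158.76 and 162.93 TPM in the LPS + UDCA libraries. It rose by 0.37 with no overlap (limma, FDR = 2.29e-05). Yars had 111.54, 106.74, 107.21 and 108.89 TPM in the LPS libraries and 105.32, 101.39, 107.63 and 104.61 TPM in the LPS + UDCA libraries. The groups overlapped and the difference of -0.05 was not called (FDR = 0.19), but it was called after centring on the median of all genes (-0.13, FDR = 0.0083), and centring within bins of GC content gave 0.02 (FDR = 0.67).

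The most abundant member was Sars, the serine enzyme, with 912 ± 12 TPM in LPS and 918 ± 29 TPM in LPS + UDCA, a log2 difference of 0.01 ± 0.03 (SE) that was not called. Sars alone held 24.7% to 26.0% of the summed TPM of the cytosolic members in LPS libraries and 23.2% to 24.8% in LPS + UDCA libraries. Nars, the asparagine enzyme and next in abundance, rose from 348.1 ± 15.7 to 480.8 ± 30.6 TPM, a log2 fold change of 0.46. Aars, for alanine, stood at 145.7 ± 4.4 and 148.6 ± 3.0 TPM and was not called. After quantile normalization both Sars and Aars were called higher, at 0.13 each (FDR = 0.0070 and 0.0028). Tars, for threonine, was called at 0.15 (FDR = 0.018), and the call was lost after centring on the median of all genes (0.07, FDR = 0.15) and without LPS replicate 2 (0.13, FDR = 0.052). Of the remaining cytosolic enzymes, those for cysteine (Cars), histidine (Hars) and valine (Vars) fell by 0.39, 0.37 and 0.27. Vars was not called after centring within bins of GC content (-0.08, FDR = 0.093).

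Phenylalanine is charged in the cytosol by an enzyme of paired α and β subunits, encoded by Farsa and Farsb, and their mRNAs changed in opposite directions. Farsa had 73.21, 68.33, 71.01 and 69.48 TPM in the LPS libraries and 53.14, 54.98, 54.43 and 50.85 TPM in the LPS + UDCA libraries. Farsb had 109.34, 109.11, 111.84 and 126.42 TPM in the LPS libraries and 135.99, 137.64, 145.30 and 142.03 TPM in the LPS + UDCA libraries. Neither gene's groups overlapped, with log2 fold changes of -0.40 for Farsa (limma, FDR = 2.07e-05) and 0.30 for Farsb (FDR = 0.00068). The ratio of the mean TPM of Farsb to that of Farsa was 1.62 in LPS and 2.63 in LPS + UDCA. Within libraries the log2 ratio differed by 0.69 ± 0.07 (SE) with no overlap (exact permutation test over 70 arrangements, 2-sided, p = 0.029, the smallest the design allows). This ratio and the values of Farsb were singled out after they were seen.

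The mitochondrial members were expressed at lower levels than the cytosolic ones and also moved both ways. Their median TPM was 8.77 to 9.42 in LPS libraries and 10.9 to 11.7 in LPS + UDCA libraries, against 129 to 134 and 136 to 141 for the cytosolic members. Of the 17, 8 rose, 5 fell and 4 were not called, with a median log2 fold change of 0.22. Of the 19 cytosolic members, 10 rose, 6 fell and 3 were not called, with a median of 0.15. The summed TPM was 281 to 333 in LPS and 339 to 383 in LPS + UDCA for the mitochondrial members, and 3545 to 3664 and 3807 to 3935 for the cytosolic members. Neither pair of ranges overlapped. Class I and class II enzymes gave like counts, with 9 of 18 higher and 6 lower in class I and 9 of 18 higher and 5 lower in class II. All these counts stand beside 40.2% higher and 32.3% lower over all genes tested, where the median was 0.08.

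Wars2, Ears2 and Pars2, the mitochondrial enzymes for tryptophan, glutamate and proline, led the mitochondrial members that rose. Wars2 had 5.44, 3.51, 4.03 and 3.08 TPM in the LPS libraries and 8.02, 6.61, 9.31 and 6.74 TPM in the LPS + UDCA libraries. Its log2 fold change was 0.80 ± 0.16 (SE, limma, FDR = 0.0013), and the highest LPS library was still below the lowest LPS + UDCA library. Ears2 (chr7:122037213-122067263, minus strand) had 9.42, 7.62, 8.63 and 8.14 TPM in the LPS libraries and 13.75, 14.64, 14.43 and 15.12 TPM in the LPS + UDCA libraries. It rose by 0.71 (FDR = 1.61e-05) with a wide gap between the groups. Pars2 had 5.02, 6.11, 4.06 and 6.24 TPM in the LPS libraries and 8.64, 9.08, 10.85 and 7.71 TPM in the LPS + UDCA libraries, and rose by 0.67 (FDR = 0.0017) with no overlap. Rars2, for arginine, rose by 0.65, or by 0.32 after centring within bins of GC content, and Fars2, for phenylalanine, by 0.36.

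Cars2, Aars2 and Mars2, for cysteine, alanine and methionine, fell furthest among the mitochondrial members. Cars2 (chr8:11513977-11550783, minus strand), also known to form cysteine persulfides, had 13.06, 10.78, 11.27 and 12.91 TPM in the LPS libraries and 5.96, 6.59, 5.85 and 6.31 TPM in the LPS + UDCA libraries. It fell by 0.85 with no overlap (limma, FDR = 1.01e-05). Aars2 had 4.47, 4.29, 5.45 and 4.72 TPM in the LPS libraries and 2.84, 3.28, 3.03 and 3.19 TPM in the LPS + UDCA libraries, and fell by 0.49 (FDR = 0.0010). Mars2, the least abundant member, had 1.56, 1.31, 1.46 and 1.39 TPM in the LPS libraries and 0.61, 0.79, 0.84 and 0.81 TPM in the LPS + UDCA libraries. It fell by 0.46 (FDR = 0.0055), a scale that understates the change of so low a gene, and by 0.83 with a pseudocount of 0.1. Yars2, for tyrosine, fell by 0.38.

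Lars2, for leucine in mitochondria, was the mitochondrial member with the highest mean TPM, and whether it was called depended on the fit. It had 59.44, 57.04, 112.46 and 78.13 TPM in the LPS libraries and 88.48, 86.81, 97.91 and 116.94 TPM in the LPS + UDCA libraries. LPS replicate 3 lay above 3 of the 4 LPS + UDCA libraries, and the log2 difference of 0.39 was not called (limma, FDR = 0.11). Without that library the difference was 0.58 (FDR = 0.0052), and with the replicate block and all libraries it was 0.39 (FDR = 0.046), both called. The isoleucine enzyme Iars2 was called at 0.22 (FDR = 0.025), and 22.4% of its 31-base words also occur in transcripts of Rab3gap2 on the opposite strand. Its call was lost in 8 of the alternatives, among them leaving out LPS replicate 3 (0.17, FDR = 0.062), LPS replicate 4 (0.22, FDR = 0.054) and LPS + UDCA replicate 3 (0.17, FDR = 0.069). Sars2, Vars2 and Nars2 were not called, with log2 differences of 0.18, 0.03 and -0.19. Sars2 was called without LPS + UDCA replicate 3 (0.26, FDR = 0.0069), and Nars2 after centring on the median of all genes (-0.26, FDR = 0.020). Lars2, Iars2, Sars2 and Nars2 are described here because of their values.

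For 14 amino acids, 1 cytosolic and 1 mitochondrial gene could be compared within each library. The cytosolic gene had the higher TPM in every library for 13 of the 14, the exception being Lars and Lars2. Both genes were called for 8 amino acids, in the same direction for 5 and in opposite directions for 3. The log2 ratio of the cytosolic to the mitochondrial gene did not overlap between the groups in 8 of the 14 pairs, higher with UDCA in 7 and lower in 1. Each of these 8 had an exact permutation p of 0.029 (2-sided, 70 arrangements, unadjusted), the smallest that 4 against 4 libraries can give.

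**Figure D3:**
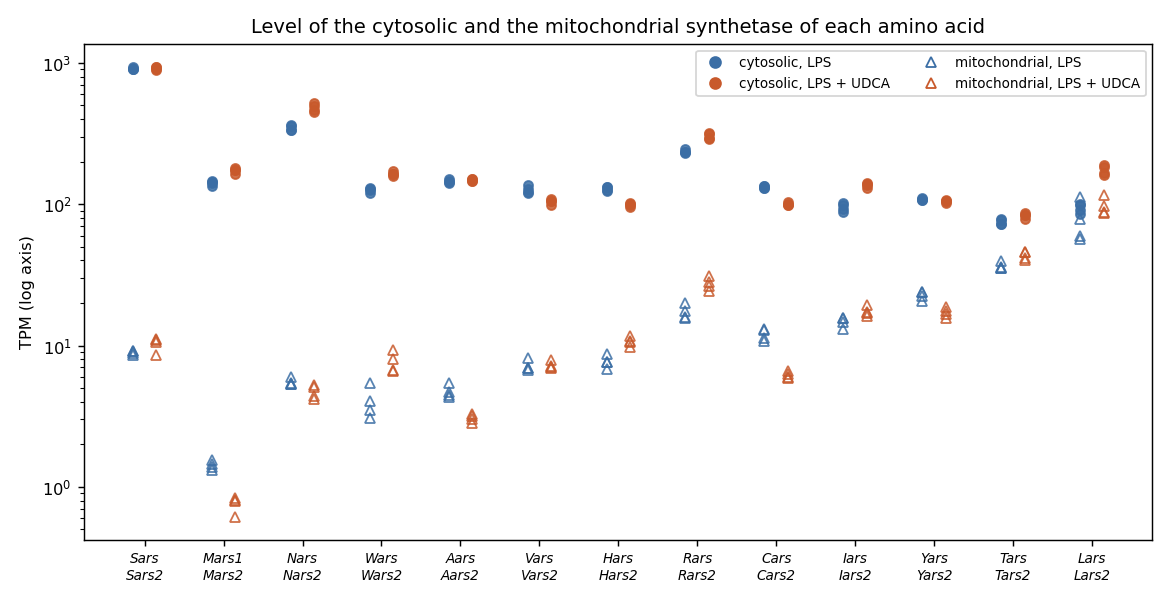
TPM on a log axis for the cytosolic (filled circles) and mitochondrial (open triangles) gene of 13 of the 14 amino acids, with each symbol 1 library. The gap is widest on the left and closes at Lars and Lars2, where the levels mix.

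For methionine the ratio rose by 0.75 ± 0.09 (SE), with Mars1 higher and Mars2 lower. The mean TPM of Mars1 was 98.9 times that of Mars2 in LPS and 226 times in LPS + UDCA. The ratios for asparagine, alanine, cysteine, tyrosine and isoleucine were higher by 0.65, 0.52, 0.46, 0.33 and 0.30.

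Histidine was the pair whose ratio fell without overlap. Hars had 124.43, 125.94, 131.69 and 132.23 TPM in the LPS libraries and 98.68, 102.22, 101.02 and 95.29 TPM in the LPS + UDCA libraries. Hars2 had 7.69, 7.65, 6.86 and 8.77 TPM in the LPS libraries and 11.74, 10.79, 10.61 and 9.73 TPM in the LPS + UDCA libraries. Both were called, with log2 fold changes of -0.37 for Hars (limma, FDR = 1.89e-05) and 0.42 for Hars2 (FDR = 0.0015), and the log2 ratio differed by -0.79 ± 0.08. The genes lie head to head, with their annotated starts overlapping by 197 bases, and 6.68% of the 31-base words of Hars occur in Hars2 transcripts. The ratios for leucine, tryptophan, valine, arginine, serine and threonine overlapped between the groups, with differences from -0.43 (tryptophan, p = 0.086) to 0.51 (leucine, p = 0.057, exact permutation test).

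**Figure D4:**
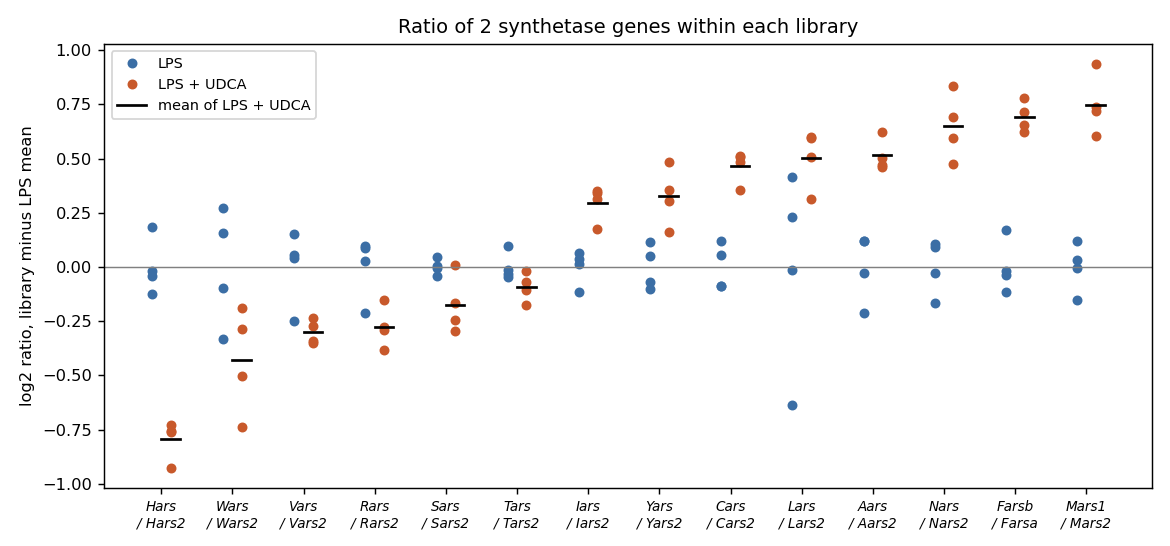
Log2 ratio of (TPM + 1) of the first to the second gene in each library, minus the mean of the 4 LPS libraries, for 13 of the 14 cytosolic and mitochondrial pairs and for Farsb to Farsa. Each point is 1 library and the bar is the LPS + UDCA mean. Means run from -0.79 for Hars to Hars2 to 0.75 for Mars1 to Mars2.

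Several members have the start of an oppositely transcribed gene within 1000 bases of their own, and these neighbours were read beside them. Ears2 and its neighbour Ubfd1 rose together by 0.71 and 0.33, Fars2 and Lyrm4 by 0.36 and 0.38, and Rars2 and Orc3 by 0.65 and 0.35 (limma, each FDR under 0.05). After centring within bins of GC content Orc3 was not called (-0.01, FDR = 0.84) and Lyrm4 stood at 0.25. Kars fell by 0.32 while Terf2ip, whose start lies 75 bases away, rose by 0.92. Sars2 and Mrps12, a mitochondrial ribosomal protein gene, were both not called, though both were called higher after centring within bins of GC content, Mrps12 at 0.16.

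Genes of uncharged tRNA sensing and of the Atf4 response were read together, 9 of them tested. Gcn1, Impact and Eif2ak4 act at the sensing step, and the rest are Atf4 and genes downstream of it. Whether Gcn2 was activated was not tested. Over the 9 genes, 7 rose, 1 fell and 1, Eif2ak4, which encodes Gcn2, was not called. Over all genes tested, the shares were 40.2% higher and 32.3% lower. Atf4 had 472.24, 477.19, 475.23 and 475.87 TPM in the LPS libraries and 952.62, 950.28, 903.56 and 897.35 TPM in the LPS + UDCA libraries. It rose by 0.96 with no overlap (limma, FDR = 1.18e-08). The Atf4 targets Trib3, Sesn2 and Ddit3 rose by 1.23, 1.44 and 0.54. Asns, the asparagine synthetase of amino acid supply, was called at 0.19 and Chac1 at 0.12. The call of Asns was lost after centring within bins of GC content (0.06, FDR = 0.098). That of Chac1 was lost in 12 of 17 alternatives, 7 of them leaving out 1 library each (0.09 to 0.14, FDR 0.053 to 0.11), and among the 8 omissions it stood only without LPS + UDCA replicate 4. Impact, an inhibitor of Gcn2 activation, rose by 1.89 and its partner Gcn1 fell by 0.49, or by 0.31 after centring within bins of GC content. Atf4 and its targets were singled out after their values were seen.

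The promoters of the members, 250 bases before to 50 after the start, were searched in RefSeq sequence (GRCm38.p6), which held promoters for 26 of the 36. The composite C/EBP-ATF element bound by Atf4 was searched as TGATGNAA on both strands (TTNCATCA on the other). It was present for 5 of the 26 genes, Aars, Gars, Iars, Tars and Yars, and in 3.97% of all 32851 promoters. Members are counted here by gene and the share over all is by promoter. A gene can have several promoters, so the count and the share are not on the same scale. A match of each gene is shown in a 30-base window because these are the members whose promoter holds the letters of an Atf4 element, with the match in capitals, on the strand of the gene. The windows lie at chr8:111033840-111033869 (Aars, plus strand), chr6:55037960-55037989 (Gars, plus), chr13:49682126-49682155 (Iars, plus), chr15:11399655-11399684 (Tars, minus) and chr4:129189895-129189924 (Yars, plus).
Aars: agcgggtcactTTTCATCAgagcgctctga
Gars: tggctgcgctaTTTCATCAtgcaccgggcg
Iars: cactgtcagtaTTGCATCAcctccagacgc
Tars: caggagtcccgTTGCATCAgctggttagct
Yars: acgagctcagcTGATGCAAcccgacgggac

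These 5 genes did not change alike. Iars rose by 0.52, Gars by 0.19 and Tars by 0.15, while Aars (0.03) and Yars (-0.05) were not called. Qars was not among the 5, and whether it was among the 26 genes searched is not given here. The E-box CACGTG was found for 5 of the 26 genes (Aars, Ears2, Farsb, Iars and Tars) and in 7.15% of all promoters. The antioxidant response element core TGACNNNGC was found for 6 of the 26 genes and in 12.4% of all promoters, again by gene and by promoter. A match describes letters in a window and not a site in use.

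The GC content of the transcripts ran with the changes of the cytosolic members. GC content was taken, here and for the bins, from the longest protein-coding transcript of each gene, and other transcripts were not considered. Over these 19 genes (genes do not count as independent replicates), GC content and log2 fold change had a Pearson's r of -0.61 and a Spearman's rho of -0.60. Across the 17 mitochondrial members they were 0.00 and 0.02, and across 10442 protein-coding genes -0.24 and -0.29. Centring within bins of GC content, beside the cases given above, brought the log2 fold change of Rars to 0.23, Farsb to 0.17, Farsa to -0.24, Aars2 to -0.29 and Mars2 to -1.04, all still called (FDR at most 0.019). All points come from the same 8 libraries, and the part of GC content in these changes was not tested beyond the centring within bins of GC content.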

How the data were processed

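RNA of J774A.1 cells was sequenced in 4 LPS and 4 LPS + UDCA libraries, grouped by the sample labels. The authors deposited 1 table of TPM per gene and library. The unit was inferred from the column sums, which run from 958918 to 977485. The submitters' processing notes name Bowtie 0.12.2 and the builds mm10 and GRCm38, and the counting program is not given in the sources used here. The number of reads behind a TPM value is unknown, so errors are spreads between libraries, and each value is relative to the other RNA of its library.

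The 11796 genes averaging 1 TPM or more over the 8 libraries were fitted on log2(TPM + 1) in limma 3.58.1 (R 4.3.3), using lmFit, then eBayes with the variance following the mean. The procedure was checked on simulated data. The members, the gene lists and the tests were chosen with earlier results of these data known. Values in every library were given by rule for the 5 highest and 5 lowest members, both genes of the 3 amino acids whose genes differed most, Gars, Kars, Wars, Yars and the rest of the complex. Positions and overlaps are from GENCODE M21, and the share of a gene's 31-base words found in transcripts of another gene was computed. Shares not given above include 27.8% for Aimp2 with Eif2ak1, 14.5% for Iars with Gm4849 and 13.8% for Aars with Exosc6. Alternatives covered scaling, quantile normalization, the filter, the pseudocount, the trend, the replicate block and leaving out each library. The GC correction, in 20 bins, was added after seeing the data. Protein sequences were not analysed here, and 1 member gene and 1 promoter window are not reported here, though counts over all members include the gene. Tables and plots used pandas 2.3.3 and matplotlib 3.10.9 under Python 3.11.15.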

Additional observations from a re-analysis of the deposited data

Results flagged for a closer look

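A library far from the other 3 of its group was found in 6 of 110 groups of 4 libraries, where chance gives about 5.5 by Dixon's test at 95%. These groups covered the members, the other genes of the complex and the ratios. The genes of the other lists were not tested in this way. Farsb was at 126.42 TPM in LPS replicate 4, against at most 111.84 TPM in the other LPS libraries. Tars2 was at 39.67 TPM in LPS replicate 1, against at most 36.11 TPM. Vars2 was at 8.21 TPM in LPS replicate 4, against at most 6.91 TPM. Nars2 was at 6.03 TPM in LPS replicate 2, against at most 5.41 TPM. Aimp2 was at 56.20 TPM in LPS + UDCA replicate 4, against at least 63.45 TPM in the other LPS + UDCA libraries. The log2 ratio of Cars to Cars2 was 3.72 in LPS + UDCA replicate 2, against at least 3.85 in the others of its group.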

How the results depend on the processing

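No member or ratio changed direction past a threshold in any alternative tried, and 25 of the 36 members kept 1 call in every alternative that tested them. Qars no longer passed both thresholds after quantile normalization, which left 0 members and 0 cytosolic members lower past both, or after centring within bins of GC content, which left 0 cytosolic members but brought 1 mitochondrial member, Mars2 (-1.04), past both. With a mean of at least 5 TPM, 15 mitochondrial members were tested and 3 were lower, against 5 of 17. The median log2 fold change of the cytosolic members was 0.0677 after centring on the median of all genes, 0.0673 after median-of-ratios scaling and 0.20 after quantile normalization, and that of the mitochondrial members was 0.15, 0.15 and 0.15. Leaving out 1 library gave 17 to 18 members higher and 11 lower, and 8 to 11 pairs whose ratio did not overlap. After centring within bins of GC content, Tars2, Iars2, Tars and Vars lost their calls and Sars2, Aars, Vars2 and Nars2 gained one. Same-numbered libraries of the groups correlated by -0.04 to 0.15 in their deviations from the group means, so the numbers were not taken to pair them, and a fit with the replicate block gave the same counts, 18 higher and 11 lower, with Iars2 lost (FDR = 0.071) and Lars2 gained (FDR = 0.046). Depth is unknown, which limits the members near 1 TPM such as Mars2.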

Other observations

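Other genes that make, mend or load tRNA also moved both ways. The counts here and in the next paragraph stand beside 40.2% of all genes tested called higher and 32.3% called lower. Among 5 synthetase-like and trans-editing genes, 3 were higher, 1 lower and 1 not called (limma), from Prorsd1, related to the editing domain of prolyl-tRNA synthetases (1.21), to Dtd2, a deacylase of mischarged tRNA (-0.22). After centring within bins of GC content Prorsd1 stood at 0.63 and Dtd2 at -0.34, both still called. The mitochondrial amidotransferase, which makes glutamine on tRNA where no mitochondrial glutamine enzyme exists, and the formylation enzyme gave 2 higher, 1 lower and 1 not called, from Gatc (0.74) to Mtfmt (-0.26). The other of the 2, Gatb, was not called after centring on the median of all genes, with the replicate block, or without LPS replicate 1, LPS + UDCA replicate 2 or LPS + UDCA replicate 4 (0.45 to 0.54). Of 6 genes for selenocysteine on tRNA, 2 were higher and 2 lower, from Secisbp2 (1.11) to Sephs2 (-1.21), the latter from 161.7 ± 4.2 to 69.3 ± 2.5 TPM.

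Of 21 genes for tRNA transcription by RNA polymerase III and its control, 10 were higher, 6 lower and 5 not called. They ran from Gtf3c3 (1.22), a subunit of TFIIIC, to Polr3g (-0.94). The 10 include Maf1, a repressor of the polymerase (0.50), and Brf1, whose call was lost in 7 of 17 alternatives. Gtf3c3 stood at 0.75 after centring within bins of GC content. The groups overlapped for Polr3g, and without LPS + UDCA replicate 4 it was not called (-0.81, FDR = 0.051). Of 22 tested genes for tRNA end processing, splicing and export, 8 were higher, 10 lower and 4 not called. The highest was Elac1, a nuclease for tRNA 3′ ends, from 1.91 ± 0.13 to 8.43 ± 0.74 TPM (1.70), and the lowest Pop1, a subunit of RNase P, from 19.8 ± 1.7 to 7.21 ± 1.26 TPM (-1.35).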
